A study of Homo sapiens with 6 samples.

Results

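Genes of protein folding, quality control and degradation in the endoplasmic reticulum (ER) were followed in 786-O cells, an established human kidney cancer line, after lentiviral delivery of a short hairpin RNA. The set was a list of 43 gene symbols, of which 42 had at least 1 probe set assigned to that symbol alone. SEC61G is not analysed here. The 42 genes carried 145 probe sets and were measured among 18132 genes in all. The tested cells carried a hairpin against ERCC6L (shERCC6L, 3 arrays), and the control cells carried a negative control hairpin (shNC, 3 arrays), so both groups were infected cells of the same line. Per the labels, cells grew in RPMI medium with fetal bovine serum, RNA was taken with Trizol, and biotin-labelled cRNA went onto single-colour Affymetrix arrays. The treatment text is worded identically for all samples and mentions only the ERCC6L hairpin. The number of hairpins is not stated, nor is it stated that replicates came from separate dishes or infections. P-values therefore reflect spread among these arrays alone, and that spread may be technical.

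A secretory or membrane protein enters the ER through the SEC61 channel and folds with the help of the Hsp70 chaperone BiP, the Hsp90 chaperone GRP94, the lectins calnexin and calreticulin, and enzymes that make and rearrange disulfide bonds. Chains that fail to fold are trimmed of mannose, handed to a membrane ubiquitin ligase, pulled back into the cytosol by the ATPase p97 and destroyed by the proteasome. When unfolded protein builds up, the sensors IRE1, ATF6 and PERK start the unfolded protein response. IRE1 splices the mRNA of the transcription factor XBP1, ATF6 is released as a transcription factor by Golgi proteases, and PERK slows translation and raises ATF4. Cells of the renal tubule and the carcinomas derived from them use the same system for their many membrane transporters and receptors.

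Array medians lay between 60.04 and 61.21 signal units for shERCC6L and between 60.37 and 61.56 for shNC, and arrays correlated at 0.9986 to 0.9990 within groups and at 0.9929 to 0.9937 across groups (Pearson, across probe sets). The targeted gene, ERCC6L, gave 97.59, 97.49 and 97.83 signal units in shERCC6L cells, against 239.9, 244.3 and 261.4 in shNC cells. Its groups did not overlap, and it was 2.33-fold lower (log2 difference -1.22 ± 0.04 SE, limma adjusted p = 1.6e-07). Of 10 listed markers of renal epithelium and clear cell carcinoma, 8 were measured and all 8 lay at or above the median level of all genes, with a summed signal of 23474 to 24119 in shERCC6L cells and 24948 to 25203 in shNC cells. CA9 and NDUFA4L2 had no probe set assigned to their symbol alone in the values used. VIM made up most of the sums, with means of 14885 and 14926. By log2 difference, PAX8 (0.34) and KRT18 (0.13) were higher in shERCC6L cells, while CDH6 (-0.50), CDH2 (-0.26) and NNMT (-0.66) were lower. Markers of other cells were low. None of 4 endothelial markers (summed signal 203.3 to 211.4 in shERCC6L cells, 208.0 to 217.5 in shNC cells) and none of 5 fibroblast and muscle markers (208.1 to 221.7, against 231.7 to 241.5) reached the median level of genes. Of 5 measured leukocyte markers, CD68 reached it (summed signal 209.4 to 218.1 in shERCC6L cells, 181.7 to 199.9 in shNC cells). Their part in the results was not tested. In bulk RNA, fewer cells of a type and less RNA per cell cannot be told apart.

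The ER genes did not move in 1 direction after ERCC6L knockdown. Among the 42 measured genes, 11 were higher, 9 were lower and 22 did not pass. Values are deposited linear signals compared as log2(signal + 16), shERCC6L minus shNC, with each gene represented by its brightest probe set, limma's moderated test and Benjamini-Hochberg adjustment over all 18132 genes at a threshold of 0.05. Folds throughout, that of ERCC6L included, come from these log2 differences and are not ratios of the printed signals. A log2 difference or fold on this scale understates the change of a dim gene. Over all genes, 31.6% were called, 18.2% as higher and 13.4% as lower, so the 47.6% called among the ER genes stood above the share of all genes. The ER genes are bright, however: 40 of the 42 lay at or above the median level of genes (6.68 on the log2 scale), and 52.4% of all genes in that range were called, against 47.5% of these 40. The share of calls was thus near that of equally bright genes.

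The changes were small. The median log2 difference of the 42 genes was 0.028, against -0.011 over all genes and 0.036 over genes no dimmer than the median. The median size regardless of sign was 0.103 for the ER genes, 0.0748 for all genes and 0.137 for those brighter genes. No ER gene was called with a change of 1.5-fold, which 2.08% of all genes reached. The range ran from -0.49 for HERPUD1 to 0.45 for ERO1B. The 3 arrays of shERCC6L did not overlap the 3 of shNC for 23 ER genes (54.8%), among them all 20 that were called, against 43.4% of all genes. For the 40 brighter ER genes the share was 55.0%, against 64.5% of all genes in that range of level. Higher calls made up 55.0% of the calls among the ER genes, and 42.1% after quantile normalization (8 higher, 11 lower). For 20 of the 22 genes that did not pass, the 95% interval of the difference stayed within 0.25 on the log2 scale in either direction. Its widest reach was 0.302, or 1.23-fold, for DERL3.

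**Figure D1:**
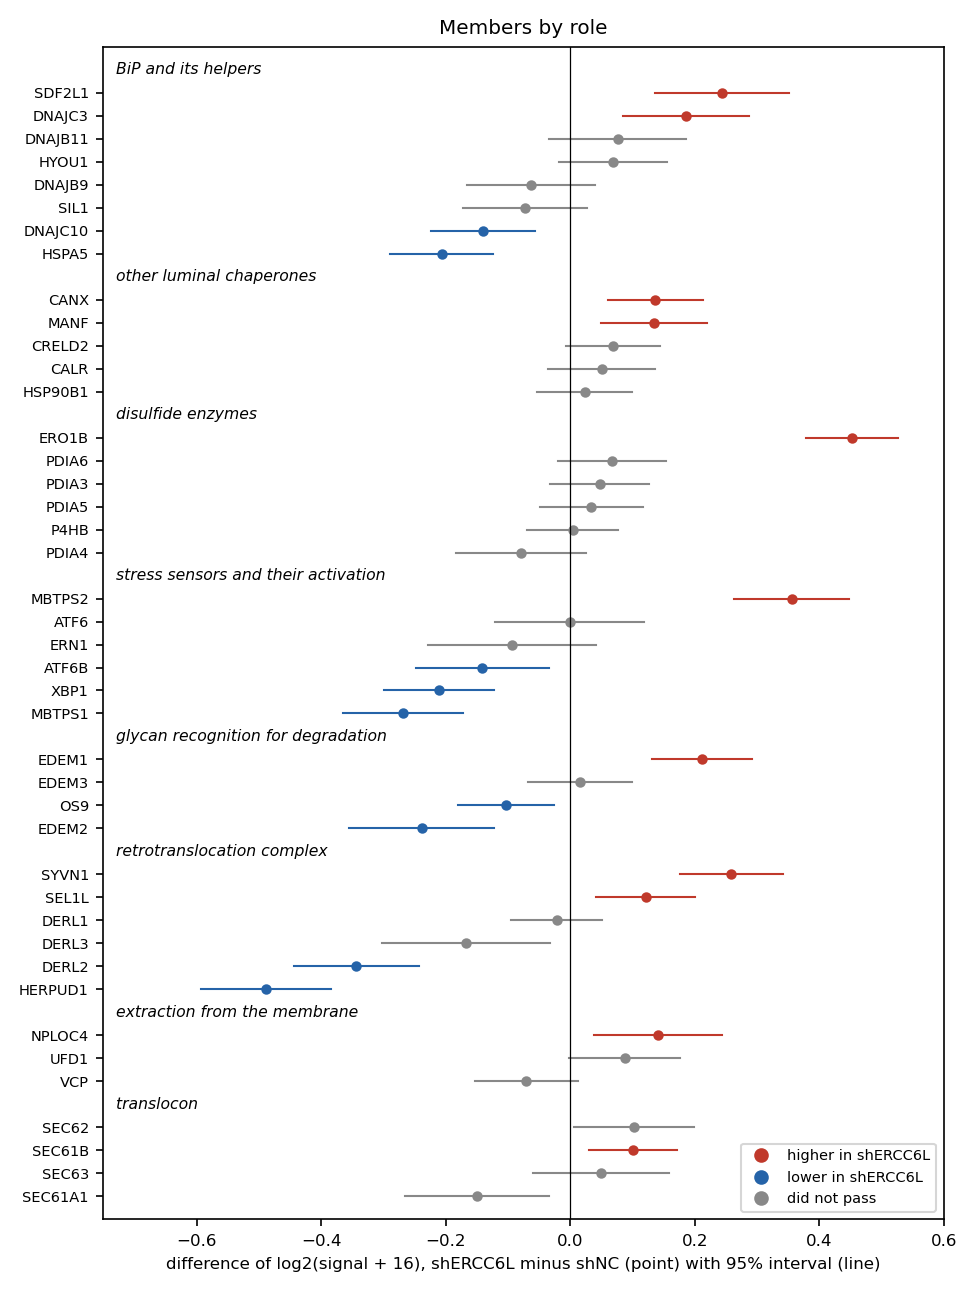
Difference of log2(signal + 16), shERCC6L minus shNC, for the 42 ER genes in 8 groups by role, with points for the estimate, lines for the 95% interval and colours for the call (n = 3 arrays per group). Red and blue points stand side by side within the same role, as for MBTPS2 and MBTPS1 or SYVN1 and HERPUD1, and all points lie between -0.49 and 0.45.

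Promoter sequence was set beside these values because many genes of the set are known targets of ATF6 and XBP1. ATF6 and XBP1 bind the ER stress response element (ERSE), searched here as CCAAT and CCACG with 9 bases between them. The shorter ERSE-II was searched as ATTGG and CCACG with 1 base between them, and the unfolded protein response element (UPRE) as TGACGTGG, each on both strands. RefSeq windows (GRCh38.p14) from 250 bases before to 50 bases after an annotated transcript start were at hand for 38 of the 42 genes, and not for PDIA3, DERL1, DERL3 and UFD1. Where a gene had several windows (6 of the 38), the window listed first was used. It lay at the outermost RefSeq start of 33 genes and at another transcript start of 5 (CANX, PDIA4, PDIA6, DERL2 and NPLOC4). ERSE stood in 7 of the 38 windows (18.4%) and in 22 of 27305 windows over all genes, 1 per gene (0.081%). ERSE-II stood in 3 (7.89%) and in 15 of all (0.055%), and UPRE in 4 (10.5%) and in 217 of all (0.795%). With every listed window of a gene searched, a choice added after the data were seen, ERSE stood in 8 of the 38 genes, PDIA6 being the added one, and in 25 of all genes (0.092%), while ERSE-II (3) and UPRE (4) had the counts given. A match of letters describes the window and is not a measured binding site. Only exact matches were counted, so an element that differs by a letter is missed, in HSPA5 as in any other gene.

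Either ERSE or ERSE-II was found in 10 ER genes, of which 3 were higher, 3 were lower and 4 did not pass. That is 26.3% of the windows of ER genes, against 37 windows over all genes (0.136%). Among 18 other measured genes with either element, 6 were higher and 2 were lower, beside 31.6% called of all genes. ERSE itself was present in 2 of 11 genes that were higher, 2 of 9 that were lower and 3 of 18 that did not pass. The sequences below are shown so that elements of genes that moved in opposite directions can be read against each other. Each is written 5′ to 3′ on the gene's own strand, with the 2 fixed parts of the element in capitals and 5 bases on each side. An element on the opposite strand reads with its parts reversed and complemented. The 3 genes with lower signal in shERCC6L cells come first, with coordinates from the first to the last capital and distances counted from the transcript start of the window used.
HERPUD1, ERSE-II, 117 bases upstream, chr16:56932025-56932035, plus strand: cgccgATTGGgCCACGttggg
XBP1, ERSE, 52 bases upstream, chr22:28800603-28800621, minus strand: gctggCCAATcgcggagggCCACGaccgt
HSPA5, ERSE, 66 bases upstream, chr9:125241391-125241409, minus strand: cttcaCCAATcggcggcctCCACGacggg
The 3 genes with higher signal follow.
ERO1B, ERSE on the opposite strand, 243 bases upstream, chr1:236282183-236282201, minus strand: gcccgCGTGGtcccgcctcATTGGccgcc
SDF2L1, ERSE-II on the opposite strand, 188 bases upstream, chr22:21642114-21642124, plus strand: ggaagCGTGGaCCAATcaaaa
CANX, ERSE, 151 bases upstream of a transcript start 20273 bases inside the outermost start, chr5:179698778-179698796, plus strand: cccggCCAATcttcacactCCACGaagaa
The 4 genes that did not pass are given last, HSP90B1 and HYOU1 with 2 elements each.
HSP90B1, ERSE, 194 bases upstream, chr12:103930216-103930234, plus strand: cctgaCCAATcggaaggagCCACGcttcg
HSP90B1, ERSE on the opposite strand, 89 bases upstream, chr12:103930321-103930339, plus strand: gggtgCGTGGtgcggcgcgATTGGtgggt
CALR, ERSE on the opposite strand, 225 bases upstream, chr19:12938384-12938402, plus strand: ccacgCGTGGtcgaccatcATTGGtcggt
CRELD2, ERSE on the opposite strand, 80 bases upstream, chr22:49918554-49918572, plus strand: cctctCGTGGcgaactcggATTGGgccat
HYOU1, ERSE-II on the opposite strand, 185 bases upstream, chr11:119057380-119057390, minus strand: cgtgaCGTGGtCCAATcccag
HYOU1, ERSE-II on the opposite strand, 79 bases upstream, chr11:119057274-119057284, minus strand: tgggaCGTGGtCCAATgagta

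The windows of 2 lowered genes are shown at greater length, because HSPA5 is the chaperone that the sensors read and HERPUD1 had the lowest log2 difference of the set. Each run covers the 150 bases before the transcript start, with the fixed parts of the element in capitals.
HSPA5, chr9:125241344-125241493, minus strand: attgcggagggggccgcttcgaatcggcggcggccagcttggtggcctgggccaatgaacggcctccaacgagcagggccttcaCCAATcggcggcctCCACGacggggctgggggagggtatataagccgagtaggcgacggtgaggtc
HERPUD1, chr16:56931992-56932141, plus strand: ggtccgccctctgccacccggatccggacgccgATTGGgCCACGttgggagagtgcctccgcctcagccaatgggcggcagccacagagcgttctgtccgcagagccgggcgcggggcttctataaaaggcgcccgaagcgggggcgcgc

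UPRE was found in DNAJC10, HYOU1, VCP and SEC62. DNAJC10 was the called gene among these, with lower signal in shERCC6L cells. In HYOU1 the UPRE shares bases with the ERSE-II at 185 bases upstream. The 8 letters of the element are in capitals.
DNAJC10, opposite strand, 125 bases upstream, chr2:182716132-182716139, plus strand: caccgCCACGTCAaccta
HYOU1, 188 bases upstream, chr11:119057386-119057393, minus strand: ccccgTGACGTGGtccaa
VCP, 189 bases upstream, chr9:35072807-35072814, minus strand: ccaatTGACGTGGcgtta
SEC62, opposite strand, 17 bases upstream, chr3:169966790-169966797, plus strand: tcgctCCACGTCAgaggg

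**Figure D2:**
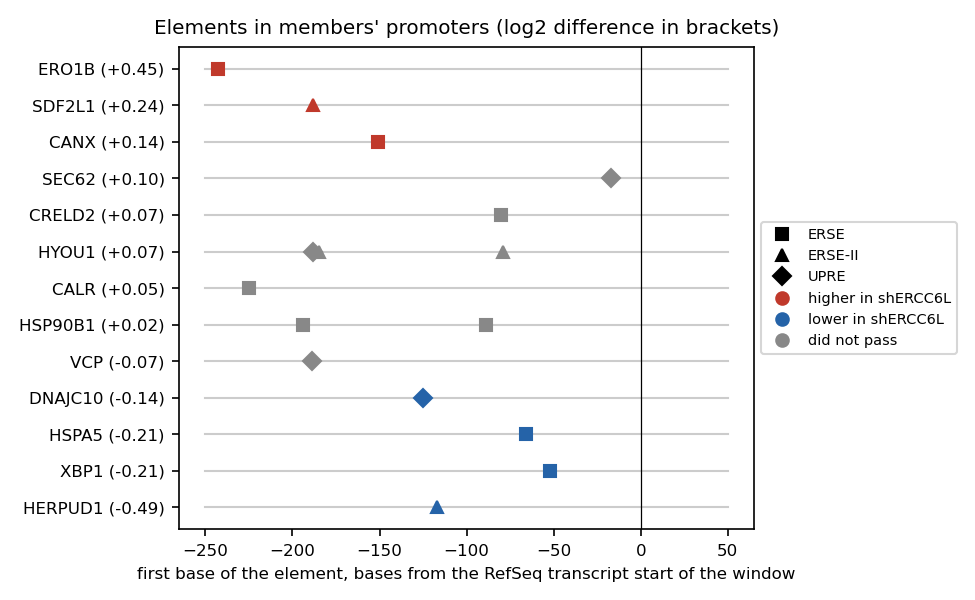
Position of ERSE (squares), ERSE-II (triangles) and UPRE (diamonds) in the promoter windows of the 13 ER genes that hold one, in bases from the transcript start of the window, ordered by log2 difference and coloured by call. Genes with higher, lower and uncalled signal each hold elements; the CANX window belongs to a transcript start inside the gene.

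BiP and the proteins that work with it split both ways. Of 8 genes, 2 were higher, 2 were lower and 4 did not pass, with a median log2 difference of 0.002. HSPA5, which encodes BiP, gave 4486, 4677 and 4651 signal units in shERCC6L cells, against 5227, 5486 and 5236 in shNC cells. Every shERCC6L array lay below every shNC array. BiP mRNA was 1.15-fold lower (log2 difference -0.21 ± 0.04 SE, 95% interval -0.29 to -0.12, limma adjusted p = 0.0022), and all 6 of its probe sets were lower, by -0.21 to -0.34.

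DNAJC10, a J protein that reduces disulfides so that substrates can be degraded, gave 599.1, 633.9 and 621.7 signal units in shERCC6L cells and 670.8, 700.9 and 676.9 in shNC cells. The groups did not overlap, and it fell by 0.14 on the log2 scale (SE 0.04, limma adjusted p = 0.017). Its 7 probe sets did not move together: 4 were lower, by -0.14 to -0.51, and a dim one was higher by 0.16. It was the sole ER gene with probe sets called in each direction. The call was lost without shERCC6L replicate 1 (limma adjusted p = 0.056) and without shNC replicate 2 (0.059).

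SDF2L1, a luminal partner of the J protein ERdj3, was higher in shERCC6L cells. It gave 722.8, 770.1 and 711.3 signal units there, against 622.2, 584.1 and 648.3 in shNC cells, a 1.18-fold difference (log2 difference 0.24 ± 0.05 SE, limma adjusted p = 0.0039). DNAJC3, a J protein that assists BiP, gave 140.5, 130.8 and 127.9 signal units in shERCC6L cells and 111.1, 120.8 and 113.2 in shNC cells. Its arrays also did not overlap (log2 difference 0.19 ± 0.04 SE, limma adjusted p = 0.011). The nucleotide exchange factors of BiP did not pass: HYOU1 had a log2 difference of 0.07 (limma adjusted p = 0.23) and SIL1 one of -0.07 (0.26). The J proteins DNAJB9, at -0.06 (0.35), and DNAJB11, at 0.08 (0.29), did not pass either.

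Among the other luminal chaperones, 2 of 5 genes were higher and 3 did not pass, with a median log2 difference of 0.069. CANX, the membrane lectin calnexin that holds newly glycosylated chains, gave 4447, 4445 and 4486 signal units in shERCC6L cells, against 4082, 3947 and 4137 in shNC cells. All shERCC6L arrays lay above all shNC arrays, at 1.10-fold (log2 difference 0.14 ± 0.03 SE, limma adjusted p = 0.013). Of its 9 probe sets, 6 were higher and none was lower. MANF, a luminal and secreted protein that binds BiP, gave 1982, 2124 and 2101 signal units in shERCC6L cells and 1887, 1860 and 1899 in shNC cells. Those groups did not overlap (log2 difference 0.13 ± 0.04 SE, limma adjusted p = 0.023), but the call was lost without any 1 array other than shERCC6L replicate 1 (0.052 to 0.09).

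GRP94 and calreticulin did not pass, with narrow intervals around small differences. HSP90B1, which encodes GRP94, averaged 8641 ± 199 signal units in shERCC6L cells and 8501 ± 82.3 in shNC cells (SD, n = 3 each), a log2 difference of 0.02 with a 95% interval of -0.05 to 0.10. CALR averaged 434.9 ± 8.78 signal units in shERCC6L cells and 419.5 ± 14.7 in shNC cells (SD, n = 3 each; log2 difference 0.05, limma adjusted p = 0.38). CRELD2, an ER stress-inducible protein with EGF-like repeats, averaged 849.5 ± 19.1 signal units in shERCC6L cells and 809.1 ± 2.63 in shNC cells (SD, n = 3 each). The CRELD2 groups did not overlap, yet the difference of 0.07 did not pass (limma adjusted p = 0.16).

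Among the disulfide enzymes of the set, ERO1B stood apart from 5 protein disulfide isomerases. Its brighter paralogue ERO1A, from a further list, averaged 988.8 ± 81.7 signal units in shERCC6L cells and 1005 ± 132 in shNC cells (SD, n = 3 each). ERO1A did not pass (log2 difference -0.02, limma adjusted p = 0.91). ERO1B, an oxidase that recharges those isomerases, gave 88.21, 90.23 and 87.66 signal units in shERCC6L cells, against 59.72, 61.78 and 59.96 in shNC cells. The 2 groups were far apart relative to their spread, at 1.37-fold (log2 difference 0.45 ± 0.03 SE, 95% interval 0.38 to 0.53, limma adjusted p = 1.2e-05). It was also a dim gene, with all 4 probe sets under the median level of genes. Of these, 2 were higher and 2 did not pass, and the log2 difference was 0.22 with the 4 averaged (limma adjusted p = 0.00069) and 0.29 with a pseudocount of 64. Across all alternatives the ERO1B difference ran from 0.22 to 0.54.

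The isomerases P4HB, PDIA3, PDIA4, PDIA5 and PDIA6 did not pass, with log2 differences between -0.08 and 0.07. P4HB, the founding member of the family and a subunit of collagen prolyl 4-hydroxylase, averaged 4991 ± 30.5 signal units in shERCC6L cells and 4978 ± 74.7 in shNC cells (SD, n = 3 each). PDIA6 averaged 3766 ± 151 signal units in shERCC6L cells and 3594 ± 20.2 in shNC cells (SD, n = 3 each; limma adjusted p = 0.24). PDIA4, the isomerase with the lowest difference, averaged 3881 ± 117 in shERCC6L cells and 4103 ± 224 in shNC cells (SD, n = 3 each; 0.25).

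The stress sensors and the proteases that act on them gave 1 higher gene, 3 lower genes and 2 that did not pass, with a median log2 difference of -0.117. XBP1, the transcription factor made from the mRNA that IRE1 splices, gave 1123, 1140 and 1212 signal units in shERCC6L cells, against 1350, 1359 and 1319 in shNC cells. All 3 shERCC6L arrays were below the shNC arrays, and XBP1 was 1.16-fold lower (log2 difference -0.21 ± 0.04 SE, 95% interval -0.30 to -0.12, limma adjusted p = 0.0027). The single XBP1 probe set was read as total XBP1 mRNA, and spliced and unspliced forms were not separated. ERN1, which encodes IRE1 alpha, gave 31.39, 32.96 and 25.82 signal units in shERCC6L cells and 33.57, 30.97 and 34.62 in shNC cells. These dim values overlapped, and the difference of -0.09 did not pass (95% interval -0.23 to 0.04, limma adjusted p = 0.29).

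The 2 proteases that release ATF6 changed in opposite directions. MBTPS2, the site-2 protease that cuts within the membrane, gave 729, 754.4 and 739.4 signal units in shERCC6L cells, against 578.4, 548.1 and 601.3 in shNC cells. MBTPS1, the site-1 protease that cuts before it, gave 300.8, 300.6 and 322.9 in shERCC6L cells, against 360.7, 388.7 and 373.7 in shNC cells. Neither gene's groups overlapped. MBTPS2 was 1.28-fold higher (log2 difference 0.36 ± 0.04 SE, limma adjusted p = 0.00018), with both of its probe sets higher. MBTPS1 fell by 0.27 on the log2 scale (SE 0.04, limma adjusted p = 0.0012), with both of its probe sets lower. The same proteases activate the sterol regulators SREBP1 and SREBP2.

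ATF6 itself gave 181.6, 201.8 and 210.4 signal units in shERCC6L cells and 190.1, 202 and 201.2 in shNC cells. The groups overlapped throughout, and the 95% interval of the difference ran from -0.12 to 0.12 on the log2 scale (limma adjusted p = 0.99). ATF6B, its paralogue, gave 121.4, 120.3 and 125.4 signal units in shERCC6L cells, against 147.1, 128.9 and 134.2 in shNC cells. Its groups did not overlap, with shNC replicate 1 above the rest (log2 difference -0.14 ± 0.05 SE, limma adjusted p = 0.048). That call was lost without any 1 array other than shNC replicate 2 (0.061 to 0.14), and the difference was -0.09 without shNC replicate 1.

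**Figure D3:**
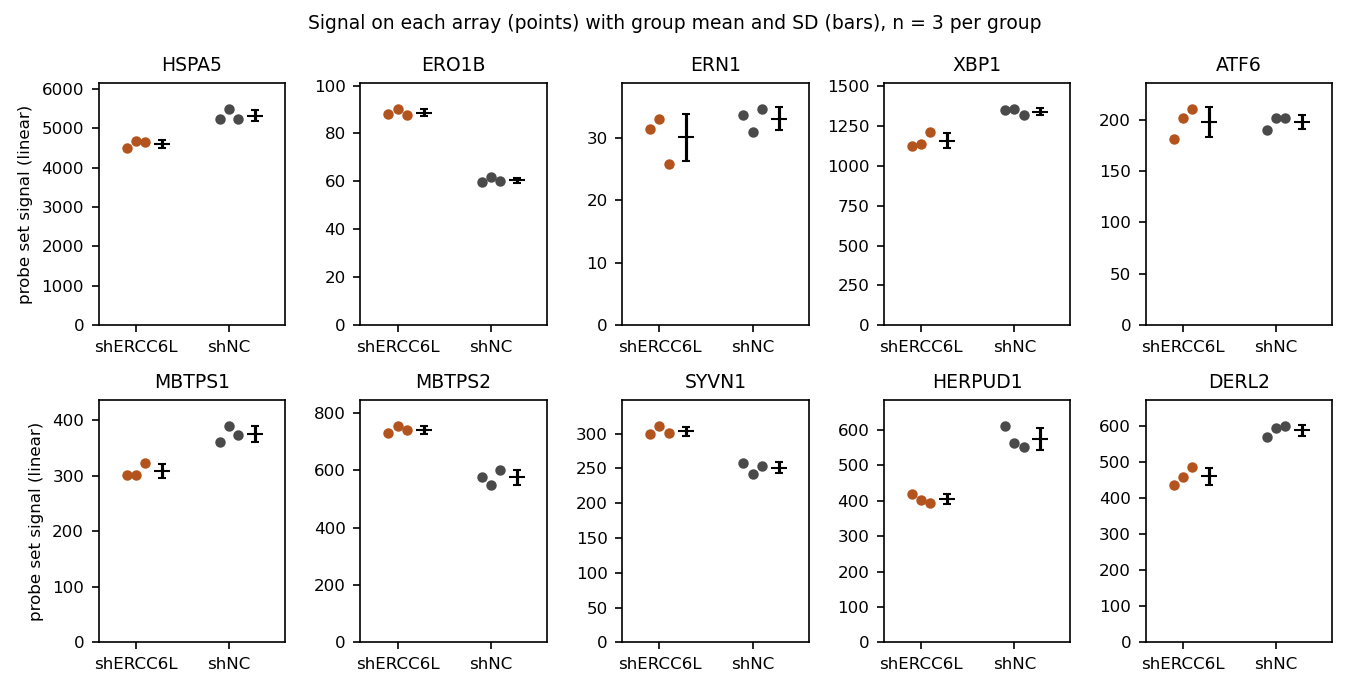
Linear probe set signal on each of the 6 arrays for 10 ER genes, with shERCC6L at the left and shNC at the right of each panel, and the group mean with its SD beside the points (n = 3 arrays per group; each panel has its own axis from 0). The groups stand clear of each other for HSPA5, ERO1B, XBP1, MBTPS1, MBTPS2, SYVN1, HERPUD1 and DERL2, and overlap for ERN1 and ATF6.

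The genes that trim mannose on failed glycoproteins or read the trimmed sugars also moved apart, with 1 higher, 2 lower and 1 that did not pass among 4. EDEM1, one of the mannosidase-like EDEM proteins that mark glycoproteins for degradation, gave 719.7, 740.9 and 743.8 signal units in shERCC6L cells, against 622.3, 651.5 and 622.5 in shNC cells. EDEM2 gave 239.6, 270.9 and 264.7 signal units in shERCC6L cells, against 297.5, 322.9 and 302.1 in shNC cells. For both paralogues the groups did not overlap, with EDEM1 at 1.16-fold higher (log2 difference 0.21 ± 0.04 SE, limma adjusted p = 0.0016) and EDEM2 at 1.18-fold lower (log2 difference -0.24 ± 0.05 SE, limma adjusted p = 0.0065). The EDEM1 call rests on its brightest probe set: 4 dim ones did not pass, and the average over all 5 had a difference of -0.02 (limma adjusted p = 0.76). Averaged over its 2 probe sets, EDEM2 was at -0.15 (0.0035).

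OS9, a lectin that brings trimmed glycoproteins to the ubiquitin ligase complex, gave 425.2, 407.4 and 409.5 signal units in shERCC6L cells and 449.8, 440.2 and 447.9 in shNC cells. The groups did not overlap, and OS9 fell by 0.10 on the log2 scale (SE 0.03, limma adjusted p = 0.045). The call was lost without any 1 array other than shERCC6L replicate 1 (0.067 to 0.14), and the average over its 6 probe sets did not pass (-0.06, adjusted p = 0.16). EDEM3 did not pass, at a log2 difference of 0.02 (limma adjusted p = 0.8), although 1 of its 5 probe sets was higher.

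The complex that moves substrates back across the membrane held both the lowest difference of the set and a clear rise. Of 6 genes, 2 were higher, 2 were lower and 2 did not pass, with a median log2 difference of -0.095. HERPUD1, a stress-inducible membrane protein that helps assemble the ligase complex, gave 419.9, 401.9 and 393.6 signal units in shERCC6L cells, against 611, 564.1 and 551.1 in shNC cells. All shERCC6L arrays lay far below the shNC arrays, at 1.40-fold lower (log2 difference -0.49 ± 0.05 SE, limma adjusted p = 5.4e-05). The 3 brighter of its 4 probe sets were lower and the dim other one did not pass.

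DERL2, a derlin of the retrotranslocation channel, gave 437.3, 460 and 486.1 signal units in shERCC6L cells and 571.4, 595.3 and 600.7 in shNC cells. The groups stood apart, with DERL2 1.27-fold lower (log2 difference -0.34 ± 0.04 SE, limma adjusted p = 0.00035). Its paralogue DERL1 averaged 853.6 ± 8.95 signal units in shERCC6L cells and 867 ± 13.3 in shNC cells (SD, n = 3 each; limma adjusted p = 0.68). DERL3 averaged 98.98 ± 10.6 in shERCC6L cells and 112.8 ± 1.57 in shNC cells (SD, n = 3 each). Its groups did not overlap but its difference of -0.17 did not pass (limma adjusted p = 0.06). It passed in 7 of 16 alternatives, among them quantile normalization (0.04) and without shERCC6L replicate 1 (0.0027).

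SYVN1, which encodes the ubiquitin ligase HRD1 at the centre of the complex, gave 298.9, 310.7 and 301 signal units in shERCC6L cells, against 257.5, 242.5 and 253.4 in shNC cells. It was higher on every shERCC6L array, at 1.20-fold (log2 difference 0.26 ± 0.04 SE, limma adjusted p = 0.0006). Averaged with its dim other probe set, the difference was 0.11 (0.011). SEL1L, the adaptor that stabilises HRD1 and receives substrates, gave 958.8, 938.4 and 988.5 signal units in shERCC6L cells and 880.9, 897.5 and 869.8 in shNC cells. Its groups did not overlap (log2 difference 0.12 ± 0.04 SE, limma adjusted p = 0.027). The SEL1L call was lost without shERCC6L replicate 1 or 3 or shNC replicate 1 or 3 (0.055 to 0.089), and with its 4 probe sets averaged (0.04, adjusted p = 0.26).

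The p97 machinery that extracts substrates gave 1 call among 3 genes. NPLOC4, a cofactor that couples p97 to ubiquitin, gave 505.7, 530.6 and 545.5 signal units in shERCC6L cells, against 499.4, 452.9 and 478.2 in shNC cells. Its groups were close without overlapping (log2 difference 0.14 ± 0.05 SE, limma adjusted p = 0.043). The call was lost without shERCC6L replicate 2 or 3 or shNC replicate 2 or 3 (0.094 to 0.13), and with its probe sets averaged (0.09, adjusted p = 0.053). VCP, which encodes p97, averaged 1465 ± 46.9 signal units in shERCC6L cells and 1538 ± 23 in shNC cells (SD, n = 3 each; log2 difference -0.07, limma adjusted p = 0.19). UFD1, the partner of NPLOC4, averaged 843.5 ± 25.6 in shERCC6L cells and 793.2 ± 26.7 in shNC cells (SD, n = 3 each; log2 difference 0.09, limma adjusted p = 0.13).

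At the translocon, 1 of 4 genes was called. SEC61B, the small beta subunit of the channel, gave 3257, 3215 and 3199 signal units in shERCC6L cells, against 3012, 2995 and 3008 in shNC cells. The groups did not overlap, at 1.07-fold (log2 difference 0.10 ± 0.03 SE, limma adjusted p = 0.037), and the call was lost whichever 1 array was left out (0.062 to 0.09). SEC61A1, the channel-forming alpha subunit, averaged 1064 ± 61.5 signal units in shERCC6L cells and 1182 ± 53.2 in shNC cells (SD, n = 3 each). SEC61A1 had a log2 difference of -0.15 with groups that did not overlap, and did not pass (limma adjusted p = 0.051). It passed in 7 of 16 alternatives, among them without shERCC6L replicate 2 (0.039) or shNC replicate 2 (0.035). SEC62 (0.10, adjusted p = 0.11) and SEC63 (0.05, adjusted p = 0.51), which help post-translational import, did not pass in limma. SEC62 passed in 3 of 16 alternatives, among them without shERCC6L replicate 1 (0.027) and with its probe sets averaged (0.13, adjusted p = 0.026).

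Tested one by one, 23 of the 145 probe sets of these genes were higher, 19 were lower and 103 did not pass, beside 29.0% called among all 44988 probe sets. Of the 145, 38 lay under the median level of genes, and 5 of those were called. For 8 genes a single probe set stood for the gene. Several probe sets moved together for HSPA5, HERPUD1, CANX, MBTPS1 and MBTPS2. The called genes EDEM1, SYVN1, NPLOC4, SEL1L, OS9, DNAJC3 and EDEM2 each rest on 1 called probe set among 2 to 6, and neither probe set of ATF6B passed when all 44988 were tested.

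**Figure D4:**
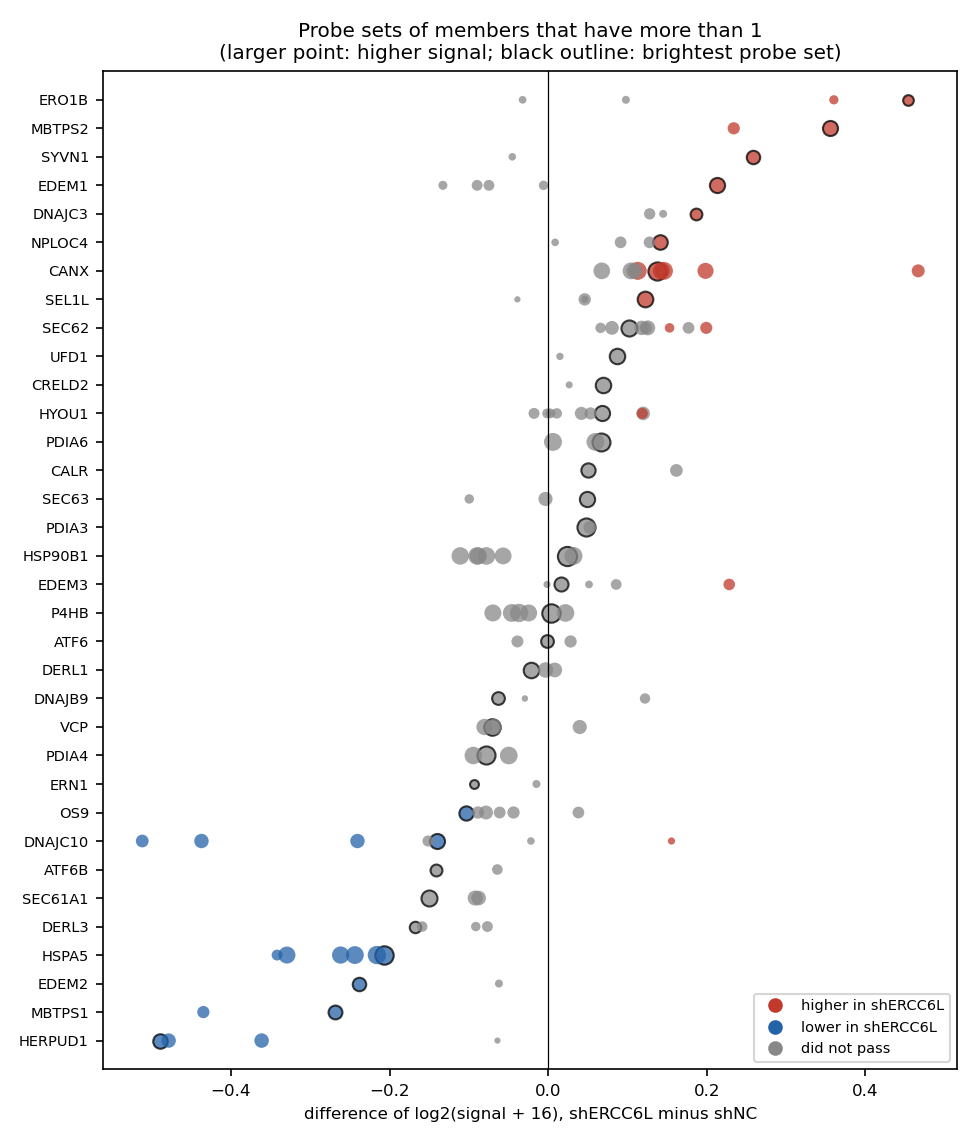
Difference of log2(signal + 16), shERCC6L minus shNC, of each probe set of the 34 ER genes that have more than 1, with larger points for higher signal, a black outline for the brightest probe set and colours for the call over all probe sets. All 6 HSPA5 points lie left of 0, while the 4 smaller EDEM1 points lie on the other side of 0 from its outlined one.

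Other genes of the same organelle were read from 6 further lists of 134 genes, of which 131 were measured. Of these, 45 were higher, 31 were lower and 55 did not pass, with a median log2 difference of 0.035. After quantile normalization, 38 were higher and 37 lower, with a median of 0.012. Called genes made up 58.0% of the 131, against 31.6% of all genes and 52.4% of genes at or above the median level. By list, the called share ran from 53.3% to 64.7%. Without the list of the PERK arm, 44 of 114 were higher and 21 were lower. Genes of targeting, translocation and signal cleavage had the highest list median, at 0.106, with 11 of 22 higher and 3 lower. SEC11A, a catalytic subunit of signal peptidase, averaged 3366 ± 92.5 signal units in shERCC6L cells and 2588 ± 51.2 in shNC cells (SD, n = 3 each; log2 difference 0.38, limma adjusted p = 6e-05). SRPRB, a subunit of the signal recognition particle receptor, was higher by 0.35 (6.8e-05).

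In the list of glucosidases and glycan checks, 5 of 13 were higher and 2 were lower. MLEC, the lectin malectin that binds glucosylated glycans, averaged 1852 ± 30.8 signal units in shERCC6L cells and 1289 ± 47.1 in shNC cells (SD, n = 3 each; log2 difference 0.52 ± 0.04 SE, limma adjusted p = 1.3e-05). GANAB, the catalytic subunit of glucosidase II, was higher by 0.32 (limma adjusted p = 9.4e-05). Both subunits of a cargo receptor for glycoproteins changed, in opposite directions. LMAN1, the lectin, averaged 1776 ± 12.7 signal units in shERCC6L cells and 1337 ± 23 in shNC cells (SD, n = 3 each; log2 difference 0.41, limma adjusted p = 2.2e-05), whereas MCFD2, its calcium-binding partner, averaged 335.9 ± 33.4 in shERCC6L cells and 848.7 ± 43.3 in shNC cells (2.46-fold lower, adjusted p = 1.6e-06). With all probe sets averaged, LMAN1 was at 0.12 and MCFD2 at -0.49, both still called.

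Thiol enzymes, prolyl isomerases and J proteins outside the set gave 9 higher, 6 lower and 13 that did not pass, with a median of 0.004. The transmembrane thioredoxin-like protein TMX3 was higher by 0.45 on the log2 scale (limma adjusted p = 0.0002). The prolyl isomerase FKBP14, at 0.43 (0.00021), and TMX1, at 0.28 (0.00028), were also higher. The collagen-related prolyl isomerase FKBP10 was at -0.26 (0.00048). Ubiquitin ligases and partners of degradation gave 14 higher, 7 lower and 15 that did not pass. YOD1, a deubiquitinase that acts with p97, was higher by 0.54 (limma adjusted p = 1.3e-05), and ERLIN2, a membrane scaffold of degradation, was at -0.68 (4.3e-05), or at -0.19 with its 10 probe sets averaged.

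In the list of the PERK arm, 1 of 17 genes was higher, 10 were lower and 6 did not pass, with a median log2 difference of -0.212. EIF2AK3, which encodes PERK itself, did not pass (log2 difference -0.03, limma adjusted p = 0.64). Neither did TRIB3 (0.05, adjusted p = 0.42) or ATF5 (0.06, adjusted p = 0.42). ATF4, the transcription factor of this arm, averaged 3553 ± 10.7 signal units in shERCC6L cells and 4625 ± 41.9 in shNC cells (SD, n = 3 each; log2 difference -0.38, limma adjusted p = 2.7e-05). Its target ASNS, asparagine synthetase, was at -1.19 (1.7e-07) and NUPR1, a stress-induced transcriptional regulator, at -1.35 (1.1e-07). PPP1R15B, which recruits the phosphatase that reverses PERK's mark, was higher by 0.73 (4.6e-05). In the CREB3 family and ER-phagy list, 5 of 15 were higher and 3 were lower. WFS1, a membrane protein of the ER mutated in Wolfram syndrome, was higher by 0.53 (limma adjusted p = 0.00011). The difference between lists was not tested, nor was the activity of PERK.

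**Figure D5:**
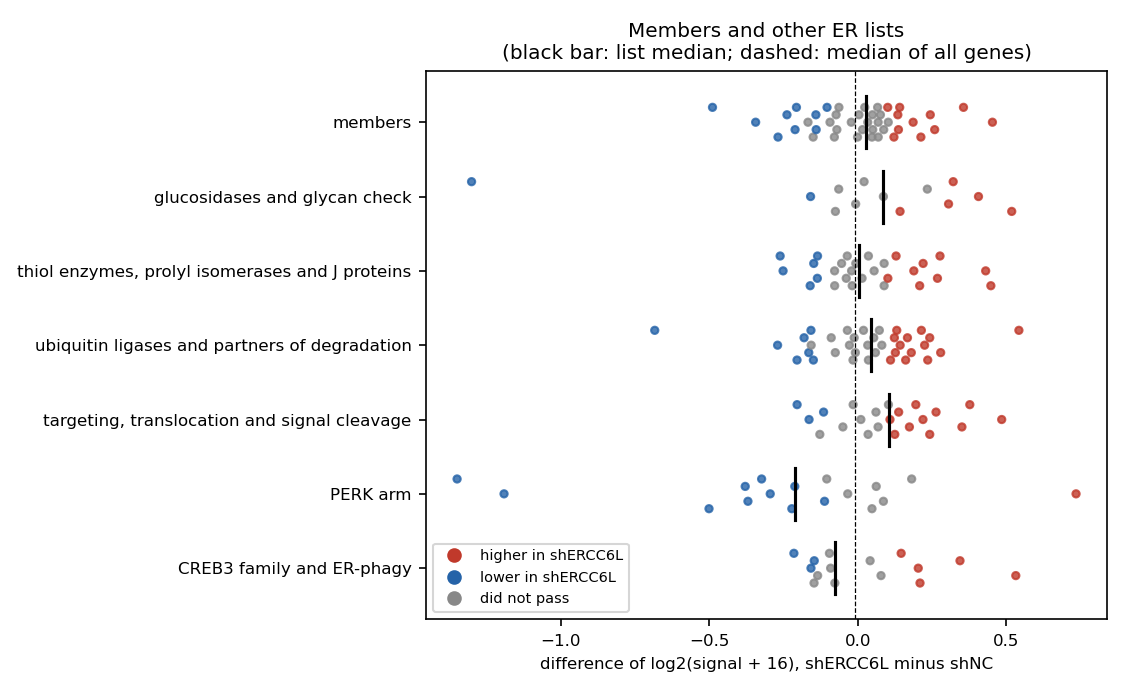
Difference of log2(signal + 16), shERCC6L minus shNC, of each gene in the set of 42 and in 6 other ER lists, with 1 point per gene coloured by call, a black bar at the list median and a dashed line at the median of all genes (-0.011). The 42 genes span -0.49 to 0.45, and the bar of the PERK arm stands at -0.212, left of the other bars.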

How the data were processed

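The authors deposited 1 linear intensity per probe set and array, made with Affymetrix Expression Console per the submitters' processing notes. The sources used here do not give its version or settings. No detection calls were used, so it is unknown where background begins, and precision is limited by the number of arrays. GEO's platform annotation gave 44988 of 49395 probe sets a single gene symbol, 1832 more than 1 and 2473 none, beside 102 controls. RefSeq (GRCh38.p14) knew the gene numbers of 44961 and left each symbol as it was.

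Tests used log2(signal + 16), and each of 18132 genes was represented by its brightest probe set (mean of the 6 arrays). The 3 shERCC6L and 3 shNC arrays entered a fit with lmFit and eBayes (limma 3.58.1, R 4.3.3). Degrees of freedom were 4 from residuals and 4.952 from the prior, tests were 2-sided, and p-values were adjusted by Benjamini-Hochberg over all genes. The fit was tested on simulated data. Intervals are at 95%. No batch is given in the labels. Alternatives were quantile normalization, median centring, other pseudocounts, filters on dim genes, averaged probe sets, every probe set alone, limma's trend and robust setting, array weights, a replicate block and leaving out each array.

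The members and lists were chosen with earlier results of these data known. By rule, arrays are given singly for called members with a log2 difference of at least 0.25 in size whose brighter group reaches the median level of genes, and for HSPA5, XBP1, ERN1 and ATF6; those of other called members were added after their values were seen. In the other lists, the genes named came from the 4 called genes with the lowest adjusted p in each list. EIF2AK3, TRIB3, ATF5 and ERO1A were added after their values were seen. Groups of 3 were too small for a search for outlying arrays.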

Additional observations from a re-analysis of the deposited data

How the results depend on the processing

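Of the 20 called ER genes, 12 stayed past the threshold in every alternative in which they were tested (16 per gene at most): HSPA5, XBP1, HERPUD1, DERL2, MBTPS1, EDEM2, ERO1B, MBTPS2, SYVN1, SDF2L1, DNAJC3 and CANX. Another 7 (DNAJC10, MANF, ATF6B, OS9, SEL1L, NPLOC4 and SEC61B) lost the call in some. EDEM1 changed sign with probe sets averaged (-0.0181, limma adjusted p = 0.76), as its 4 dim probe sets weigh as much as the bright one. Of the 22 uncalled ER genes, 5 passed in some alternative. DERL3 and SEC61A1 did so in 7 of 16 each and SEC62 in 3. VCP passed after quantile normalization only, and CRELD2 with a pseudocount of 64 only. The number of higher ER genes was 7 with a pseudocount of 1, and 7 to 10 with 1 array left out (7 without shERCC6L replicate 3 or shNC replicate 3), where fewer arrays enter the test. With every probe set tested alone, 23 of the 145 probe sets were higher and 19 lower, which counts probe sets and not genes. Same-numbered arrays correlated at 0.24, -0.14 and -0.01 in their deviations from the group means, so the numbers were not taken as pairs; with a replicate block, 8 ER genes were higher and 8 lower, and 3238 and 2381 of all genes. The 7 genes that lost the call had log2 differences of 0.10 to 0.14 in size. Mean signals of their brightest probe sets ran from 130 for ATF6B to 3114 for SEC61B. For signals near the floor of the deposited table, the background is not known.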
